A study of Homo sapiens with 4 samples.

Results

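The genes of the cytosolic ribosomal proteins were followed through depletion of hnRNPM in 2 human breast cancer lines. Members were all entries of the deposited expression table whose symbol has the form RPL or RPS with a number and an optional A, L, X or Y1, together with RPLP0, RPLP1, RPLP2 and RPSA. The rule found 81 of 20329 gene entries under 80 symbols, 47 for the large and 34 for the small subunit. Of the members, 80 had a mean of at least 1 FPKM (mapped fragments scaled to the gene's length and the library's total) over the 4 libraries, and RPS10L did not.

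Both lines descend from the triple-negative line MDA-MB-231, and the labels assign BM1 to metastasis in bone and LM2 to metastasis in lung. There were 4 groups of 1 library each. BM1 control and LM2 control cells stably carried a lentiviral shRNA without a specific target, and BM1 knockdown and LM2 knockdown cells stably carried a lentiviral shRNA against hnRNPM, so all groups share infection and an shRNA. Whether a line was a clone or a pool, and how many hnRNPM shRNAs were used, was not stated in the labels. With 1 library per group, a change within a line has no replicate check, and p-values over both lines measure only the spread between these libraries. Levels are written below as control against knockdown. CD44 and VIM, which mark mesenchymal breast cancer cells, were abundant, with means of 188.2 and 1720.9 FPKM, ERBB2 averaged 18.6 FPKM and the epithelial cadherin gene CDH1 1.76 FPKM. CDH1 rose with the knockdown, at 0.489 against 4.08 FPKM in BM1 and 0.170 against 2.30 in LM2 (1.63 ± 0.25, log2, standard error, limma, adjusted p 0.0144), and VIM was at 2354.1 against 1159.8 FPKM in BM1 and 1574.8 against 1794.8 in LM2. ESR1 and PGR were not analysed here.

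A ribosome is built from a large and a small subunit, each made of ribosomal RNA and a set of proteins that is nearly always present in a single copy. The large subunit holds the peptidyl transferase centre and the exit tunnel, and the small subunit decodes the messenger RNA. In vertebrates most of these mRNAs begin with a C followed by a run of pyrimidines, the 5' terminal oligopyrimidine (TOP) tract, through which mTOR signalling and LARP1 control their translation. A few subunits have a second gene copy, often with a symbol ending in L, that is expressed in particular tissues or under stress.

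The start regions show how alike the members are and where some paralogs differ, so a few members and paralogs with and without a tract are written out. RefSeq promoters (GRCh38.p14) were matched by symbol for 63 of the 80 symbols. The stretches run from 50 bases before to 20 bases after the annotated start, on the coding strand, and capitals mark the longest run of C and T that touches the 10 bases on either side of the start, where it has at least 5 bases.
RPS27: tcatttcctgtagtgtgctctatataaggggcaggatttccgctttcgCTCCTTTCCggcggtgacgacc (chr1:153990712-153990781, plus strand)
RPS27L: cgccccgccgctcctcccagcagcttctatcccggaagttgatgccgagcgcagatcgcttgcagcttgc (chr15:63157458-63157527, minus strand)
RPL26: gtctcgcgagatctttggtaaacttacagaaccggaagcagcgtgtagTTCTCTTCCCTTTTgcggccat (chr17:8383174-8383243, minus strand)
RPL26L1: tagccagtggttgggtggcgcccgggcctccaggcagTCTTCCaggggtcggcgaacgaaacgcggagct (chr5:172958679-172958748, plus strand)
RPL39: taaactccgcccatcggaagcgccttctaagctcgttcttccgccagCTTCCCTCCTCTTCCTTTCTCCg (chrX:119791611-119791680, minus strand)
RPS14: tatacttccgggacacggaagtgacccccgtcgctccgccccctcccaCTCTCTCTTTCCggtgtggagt (chr5:150449720-150449789, minus strand)
RPL13A: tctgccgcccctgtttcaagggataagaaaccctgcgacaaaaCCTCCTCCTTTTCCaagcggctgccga (chr19:49487558-49487627, plus strand)
RPL35: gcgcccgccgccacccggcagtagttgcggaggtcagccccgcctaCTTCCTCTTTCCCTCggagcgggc (chr9:124861938-124862007, minus strand)
RPL7L1: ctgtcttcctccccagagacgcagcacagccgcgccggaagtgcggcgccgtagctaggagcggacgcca (chr6:42879566-42879635, plus strand)

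RPS27, RPL26, RPL39, RPS14, RPL13A and RPL35 carried uninterrupted runs of 9, 14, 22, 12, 14 and 15 pyrimidines across the start. The longest run was 3 bases in the paralog RPS27L, 2 in RPL7L1 and 6 in the upstream of the 2 annotated starts of RPL26L1. The paralogs RPL22L1 and RPL36AL, not written out, had runs of 10 and 15 pyrimidines, of which 6 and 3 bases counted from a C at the start. A C at the start followed by at least 4 C or T was found for 46 of 63 members (73.0%), against 5.14% of the 27305 genes with a promoter in the table. A run of at least 8 C or T within 10 bases of the start was found for 52 of 63 members (82.5%) on the coding strand, against 18.3% of all genes, and for 3 members (4.76%) on the other strand, against 15.4%. The hexamer CGGAAG, the core bound by ETS factors, lay on either strand of the 300 bases for 41 members (65.1%), against 22.6% of all genes. The 46 members with a TOP-like start had median changes under knockdown of -0.22 in BM1 and -0.25 in LM2, and the 17 others of -0.23 and -0.14, on the log2(FPKM + 1) scale used throughout for changes. These matches describe the annotated start, which need not be the start used in these cells.

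From the steps between low values the libraries hold about 31300000 against 22800000 fragments in BM1 and 41500000 against 27300000 in LM2. HNRNPM, the targeted gene, fell to 16.6% of control in BM1 and 15.4% in LM2 (-2.59 ± 0.25, log2, standard error, limma, adjusted p 0.00318). Genes of the mitochondrial genome took 9.31% and 12.8% of the FPKM sum in BM1 control and knockdown, and 8.80% and 11.8% in LM2. That share moved with the knockdown in both lines.

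Ribosomal protein genes took a smaller share of the FPKM sum in both knockdown libraries. The share was 10.5% against 9.31% in BM1 and 11.7% against 10.0% in LM2. Without the mitochondrial genome in the sum, the shares were 11.6% and 10.7% in BM1 and 12.8% and 11.4% in LM2. The median member was at 558.1 against 460.8 FPKM in BM1 and 578.5 against 477.1 in LM2. FPKM values are relative, so a smaller share and less of these mRNAs per cell cannot be told apart. Members at or above 500 FPKM numbered 47 and 35 in BM1 and 49 and 39 in LM2.

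Levels of single members were far from equal. Apart from symbols ending in L, the mean level over the 4 libraries ran from 133.6 FPKM to 1748.2 FPKM. RPS18, a protein of the head of the small subunit, was highest, at 2145.6 against 1692.6 FPKM in BM1 and 1686.8 against 1467.7 in LM2. It was followed by RPS29 (mean 1449.3 FPKM), RPS10 (1301.9), RPS24 (1193.1) and RPL27 (1082.1). The order of levels was similar in the lines, with a Spearman rho across the 80 members of 0.89 between the control libraries and of 0.86 between the knockdown libraries. The sum over large subunit members was 1.22 times that over small subunit members in BM1 control and 1.20 times after knockdown, and 1.29 and 1.36 times in LM2.

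**Figure D1:**
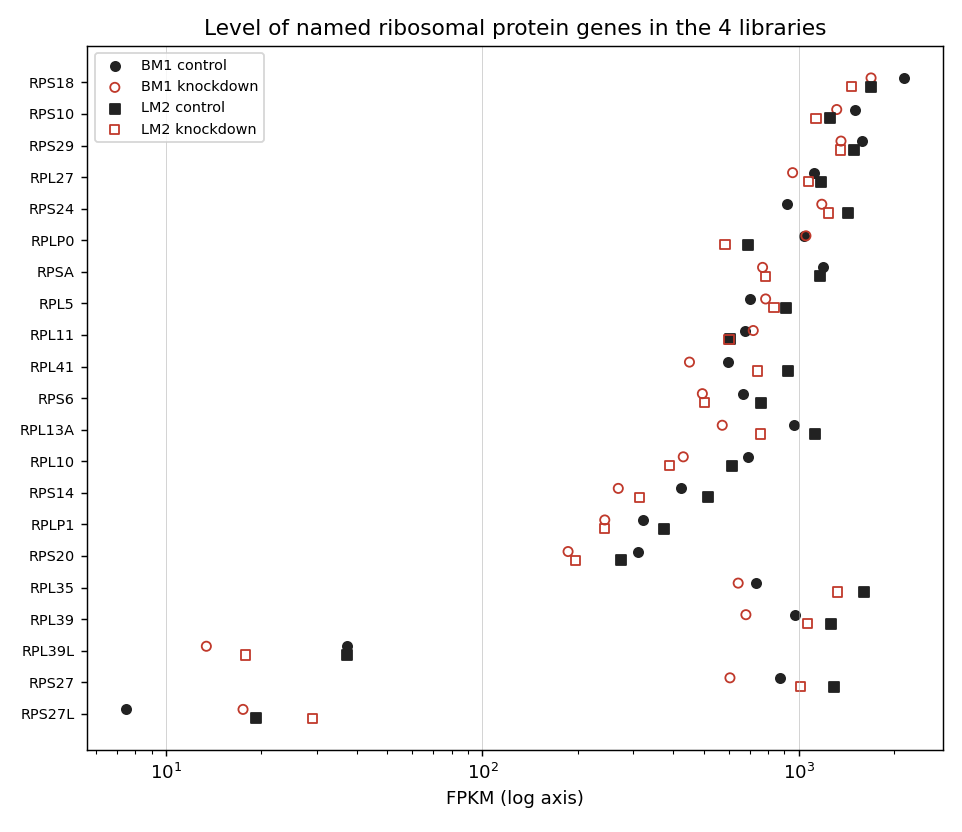
FPKM on a log axis of 21 named members in each library; circles are BM1, squares LM2, filled symbols control and open symbols knockdown. RPL39L and RPS27L sit between 7.48 and 37.4 FPKM, far to the left of RPL39 and RPS27, and the open symbols of RPSA, RPS14 and RPL10 lie left of both filled ones.

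Most members were somewhat lower after hnRNPM depletion, by similar amounts in both lines. In BM1 66 of 80 members (82.5%) were lower in the knockdown library, where 49.7% of all 13928 genes tested were lower. In LM2 66 of 80 (82.5%) were lower, against 53.5% of all genes. In both lines 56 members (70.0%) were lower, against 36.2% of all genes, and 4 were higher (RPL15, RPL34, RPS3A and RPS27L), against 33.0%. The median change was -0.23 in BM1, with an interquartile range of -0.43 to -0.11, and -0.19 in LM2, with an interquartile range of -0.36 to -0.06. The medians over all genes tested were 0.00 and -0.04.

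The changes were small and lay close together. The 1.5-fold rule (0.585 on the log2 scale) was passed downward by 8 members in BM1 (10.0%), against 16.8% of all genes, and by 5 in LM2 (6.25%), against 13.9%, so the members did not exceed the background in large decreases. RPL10, RPL39L and RPS14 passed it in both lines. RPL3, RPL12, RPL13A, RPS20 and RPSA passed it in BM1 as well, and RPLP1 and RPS2 in LM2. Upward it was passed by 2 members in BM1 (RPS27L and RPS3A), where 21.0% of all genes passed, and by 0 in LM2, where 10.7% did. On plain FPKM RPS27L was at 151.1% of control in LM2, which the added 1 brings under the rule. As a description across genes, which share their libraries, the BM1 and LM2 changes of the 80 members correlated with r = 0.60 (Pearson) and rho = 0.52 (Spearman), and with 0.47 and 0.49 over the 78 members whose symbol does not end in L. Over all genes tested both were 0.55.

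In BM1 abundant genes as a whole were lower. Among the 680 genes with a mean of at least 100 FPKM, a group that holds 78 of the 81 members, the median change was also -0.23 in BM1 and 68.8% were lower. In LM2 the median of those genes was -0.05 and 55.9% were lower. With the trend of change against level removed, the members' median was 0.01 in BM1, with 38 of 80 lower, and -0.12 in LM2. Scaling without the mitochondrial genome, which moved the median of all genes to 0.10 in BM1, left the members at -0.11 in BM1 and -0.14 in LM2. Quantile normalization left them at -0.03 and -0.11, and removal of the trend with transcript length and GC content at -0.14 and -0.13. What part level or the mitochondrial share has in the members' values was not tested.

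**Figure D2:**
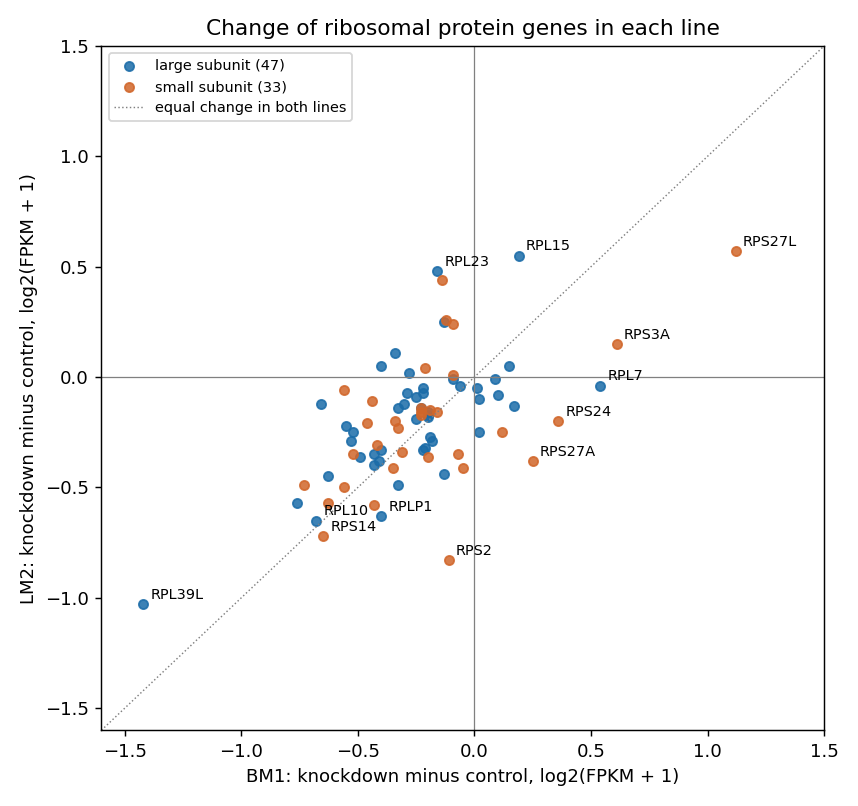
Knockdown minus control on the log2(FPKM + 1) scale in BM1 (horizontal) and LM2 (vertical) for the 80 members tested, 47 of the large (blue) and 33 of the small subunit (orange). The 2 colours overlap, 56 points lie in the lower left, and RPL39L and RPS27L lie apart from the cloud at opposite ends.

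The medians of the subunits lay close together. Large subunit members had medians of -0.23 in BM1 and -0.16 in LM2, with 38 and 40 of 47 lower. Small subunit members had medians of -0.23 and -0.21, with 28 and 26 of 33 lower. The difference of the medians, large minus small, was 0.00 in BM1 and 0.05 in LM2. It is a description, since members of a subunit share their libraries.

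In the small subunit the lowest average change was that of RPS14, whose loss of a copy underlies the anaemia of the 5q- syndrome (ENSG00000164587.11, chromosome 5, 149822753 to 149829319, minus strand, GRCh37). RPS14 was at 423.5 against 268.8 FPKM in BM1 and 516.1 against 312.9 in LM2, so both knockdown libraries lay below both controls. The share of all genes with this order was not counted, so here and elsewhere it only describes the levels. Its average change was -0.69 ± 0.25 (log2, standard error), with an unadjusted p of 0.0236 and an adjusted p of 0.138 in limma. RPSA, a protein of the small subunit that is also known as the laminin receptor precursor, was at 1189.3 against 768.4 FPKM in BM1 and 1168.9 against 784.3 in LM2. The 2 controls were nearly equal, as were the 2 knockdowns (average change -0.60, adjusted p 0.182). RPS20 was at 309.8 against 186.5 FPKM in BM1 and 275.1 against 196.3 in LM2, again with both knockdowns below both controls (-0.61, adjusted p 0.183).

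RPS6, the substrate of the S6 kinases, was at 668.0 against 495.7 FPKM in BM1 and 757.3 against 504.9 in LM2 (average change -0.51, adjusted p 0.254), with no overlap between controls and knockdowns. RPS2 differed more between the lines, at 795.7 against 735.8 FPKM in BM1 and 1086.7 against 611.4 in LM2. RPS2 was lower by 0.83 in LM2 and by 0.11 in BM1, and its BM1 knockdown level was above its LM2 knockdown level. The abundant RPS18, RPS29 and RPS10 had average changes of -0.27, -0.19 and -0.17, none below an adjusted p of 0.05.

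In the large subunit RPL10, which joins late in assembly close to the peptidyl transferase centre, was at 690.7 against 431.4 FPKM in BM1 and 613.5 against 389.4 in LM2. That left 62.5% of the control level in BM1 and 63.5% in LM2 (average change -0.67, adjusted p 0.149). RPL13A, known also for its release from the ribosome in the interferon-gamma response, was at 968.7 against 572.9 FPKM in BM1 and 1124.8 against 756.5 in LM2 (average change -0.66, adjusted p 0.151). For both genes the knockdowns lay below both controls. RPL3, a core protein of the peptidyl transferase region, was at 795.4 against 501.3 FPKM in BM1 and 574.2 against 528.5 in LM2. The knockdowns again lay below both controls, but the LM2 difference was -0.12 and that in BM1 -0.66 (average change -0.39, adjusted p 0.399). RPL41, the smallest ribosomal protein, was at 596.0 against 451.3 FPKM in BM1 and 926.5 against 738.7 in LM2, and both LM2 libraries exceeded both BM1 libraries.

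The stalk of the large subunit, which recruits elongation factors, is formed by RPLP0 with RPLP1 and RPLP2. RPLP1 was at 322.4 against 243.6 FPKM in BM1 and 375.5 against 242.8 in LM2, with both knockdowns below both controls (average change -0.51, adjusted p 0.250). RPLP2 was at 549.0 against 470.5 FPKM in BM1 and 592.4 against 472.0 in LM2, in the same order (-0.27, adjusted p 0.537). RPLP0, to which the others bind, was at 1036.2 against 1053.6 FPKM in BM1 and 693.1 against 584.4 in LM2, so the lines differed more than the treatments. Its average change was -0.11 (adjusted p 0.823).

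RPL5 and RPL11, which travel with 5S ribosomal RNA and can bind MDM2 when assembly is disturbed, were among the members that moved least on average. RPL5 was at 698.8 against 785.7 FPKM in BM1 and 911.8 against 834.7 in LM2, and RPL11 at 673.9 against 718.0 FPKM in BM1 and 606.4 against 602.1 in LM2. Their average changes were 0.02 and 0.04, with standard errors of 0.26 and 0.25, and the direction of RPL5 turned to -0.13 when the trend with transcript length and GC content was removed.

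The paralogs ending in L lay at both ends of the members' range of changes in BM1, RPL39L lowest and RPS27L highest, and likewise in LM2. RPL39L, a copy of RPL39 known for its expression in testis and in some tumours (ENSG00000163923.9, chromosome 3, 186838736 to 186898696, minus strand, GRCh37), was at 37.4 against 13.4 FPKM in BM1 and 37.4 against 17.8 in LM2. The controls were alike and both knockdowns lay below them. Over both lines RPL39L fell by 1.22 ± 0.26 (log2, standard error, limma, adjusted p 0.0350). Of 13928 genes 5.47% were called in this contrast, and RPL39L was the single member called of 80. In the 8 alternatives followed for RPL39L, the adjusted p was 0.0390 with size factors and above the threshold under the other 7. There it ran from 0.0503 with a pseudocount of 0.5 to 0.333 without the term for line. The change itself stayed between -1.27 and -1.09 under these alternatives. With an intensity trend, not among them, 1 member was called, whose name was not listed, and without the filter 0 members were. Among genes of at least 100 FPKM RPL39L, with a mean of 26.5 FPKM, was not tested. Leaving out either library of a line leaves no test, and the change was -1.42 in BM1 and -1.03 in LM2.

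RPL39, the widely expressed partner that lines the exit tunnel, was at 976.3 against 680.6 FPKM in BM1 and 1267.2 against 1066.4 in LM2. The level of RPL39L was 3.83% of that of RPL39 in BM1 control, 1.97% in BM1 knockdown, 2.95% in LM2 control and 1.67% in LM2 knockdown. The share of the paralog was thus lower in each knockdown than in its control, on FPKM, which is per length. The RPL39 value in these shares is uncertain, since its listed pseudogenes summed to as much as 510.3 FPKM in a library.

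RPS27L, a paralog of RPS27 known as a transcriptional target of p53 (ENSG00000185088.13, chromosome 15, 63418071 to 63450220, minus strand, GRCh37), was at 7.48 against 17.5 FPKM in BM1 and 19.2 against 29.1 in LM2. Both lines had more in the knockdown, and the BM1 knockdown did not reach the LM2 control. The average change was 0.85 ± 0.27 (log2, standard error), with an unadjusted p of 0.0119 and an adjusted p of 0.101 in limma. RPS27L overlaps LACTB on the opposite strand, and the strand setting of the counting was not given in the sources used here. RPS27 was at 871.3 against 606.0 FPKM in BM1 and 1291.4 against 1010.9 in LM2, so the pair moved apart: RPS27L was 0.859% and 2.89% of RPS27 in BM1 and 1.49% and 2.88% in LM2. RPS10L, listed in newer annotation as the pseudogene RPS10P5, was at 0.0832 to 0.402 FPKM and below the filter. RPL3L, RPL10L and RPS4Y1 had no entry among the 20329 kept.

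Paralogs with other spellings, outside the rule, gave no common direction. RPL7L1, a copy of RPL7 that takes part in ribosome assembly, was at 198.0 against 92.2 FPKM in BM1, and its knockdown level was 46.6% of control there and 66.9% of control in LM2 (average change -0.83, adjusted p 0.104). RPL26L1 was at 62.3 against 90.8 FPKM in BM1 and 69.3 against 66.9 in LM2, RPL22L1 at 22.9 against 22.6 FPKM in BM1 and 24.3 against 30.5 in LM2, and RPL36AL at 261.2 against 239.3 FPKM in BM1 and 254.8 against 271.2 in LM2. None of these was below an adjusted p of 0.05. FAU, which encodes a ribosomal protein fused to a ubiquitin-like domain, had an average change of -0.25.

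A few core members were higher. RPS3A, a protein at the exit side of the small subunit, was at 528.7 against 809.1 FPKM in BM1 and 452.2 against 501.6 in LM2. RPL15 was at 404.6 against 460.8 FPKM in BM1 and 415.5 against 609.8 in LM2, with both knockdowns above both controls (average change 0.37, adjusted p 0.412). RPL7 was at 264.3 against 386.0 FPKM in BM1 and 381.7 against 372.5 in LM2, so that the higher average rested on BM1. RPL23, another binder of MDM2, was at 246.6 against 220.7 FPKM in BM1 and 294.5 against 412.0 in LM2, and rested on LM2. Near-identical copies limit some of these values: listed pseudogenes of RPS3A summed to as much as 416.9 FPKM in a library, those of RPL15 to 164.8 FPKM and those of RPL7 to 101.2 FPKM.

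Over the whole set the limma fit gave few members a small p-value. Besides RPL39L, 6 members were at an unadjusted p under 0.05: RPS14, RPL10, RPL13A, RPSA and RPS20 on the lower side and RPS27L on the higher. The 7 members are 8.75% of those tested, below the 24.9% of all genes at an unadjusted p under 0.05. The standard error of a member's average change was at least 0.25, and the median of the average changes was -0.21. The fit removes the level difference between the lines, and limma pools the remaining spread over all genes tested. The standard error is therefore not a member's own scatter. RPL10, with changes of -0.68 in BM1 and -0.65 in LM2, also had 0.25. The fit has 1 residual degree of freedom.

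Other genes of the translation machinery had medians nearer 0. Of 23 other genes with TOP mRNAs, 12 were lower in BM1 and 13 in LM2, with medians of -0.04 and -0.03, and 0 were called in limma, with 4 (17.4%) at an unadjusted p under 0.05. They spread widely: EEF1B2, a subunit of the elongation factor 1 exchange complex, was at 492.0 against 312.6 FPKM in BM1 and 425.8 against 316.0 in LM2, whereas EIF3E, a subunit of initiation factor 3, was at 143.4 against 390.8 FPKM in BM1 and 151.4 against 251.3 in LM2. EEF1A1, the most abundant of them, was at 2234.9 against 2856.8 FPKM in BM1 and 1948.7 against 1932.2 in LM2. The EEF1A1 values are uncertain, since its listed pseudogenes summed to as much as 1665.9 FPKM in a library. Of 45 ribosome biogenesis and RNA polymerase I genes, 21 were lower in BM1 and 16 in LM2, with medians of 0.02 and 0.10. UBTF, which binds the promoters of ribosomal RNA genes for RNA polymerase I, was the single gene of that list called in limma, at 45.9 against 21.2 FPKM in BM1 and 42.9 against 20.7 in LM2 (average change -1.05, adjusted p 0.0482). Of all genes tested 5.47% were called. The call of UBTF was absent without the filter, with quantile normalization and without the line term, where 0 genes were called at all. Its other alternatives were not listed. The 77 mitochondrial ribosomal protein genes had medians of -0.05 and 0.05. No test of the difference between these lists and the members was made.

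**Figure D3:**
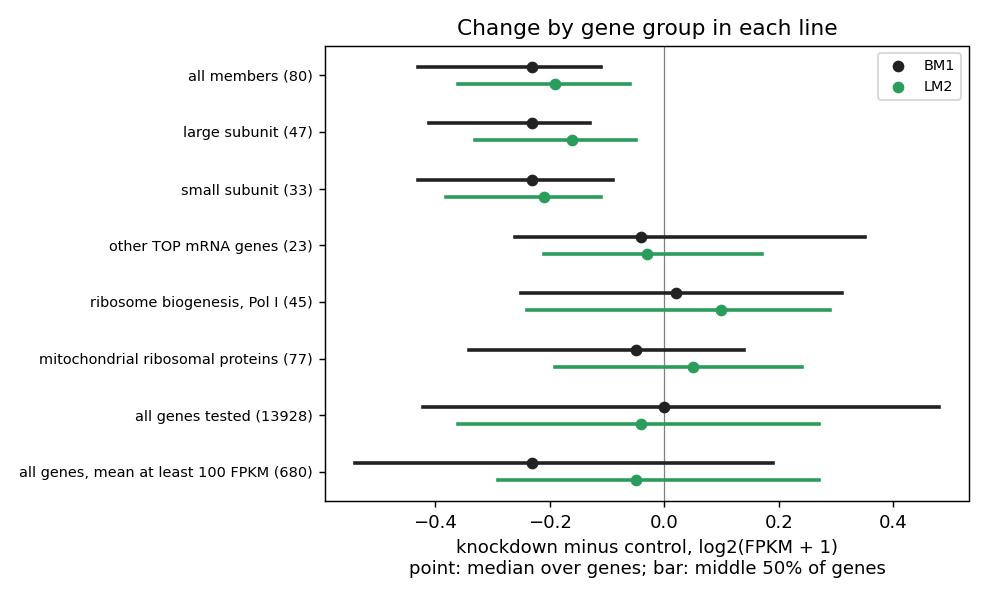
Median change (points) and interquartile range over genes (bars) in BM1 (black) and LM2 (green) for gene groups, with the number of genes tested in brackets, on the log2(FPKM + 1) scale. Both subunits lie left of 0 in both lines, and the group of all genes with a mean of at least 100 FPKM shares the members' BM1 median of -0.23 but not their LM2 median.

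The lines were also compared with each other. Between the control libraries 45 of 80 members (56.2%) were higher in LM2, near the 52.2% of all genes, with a median difference of 0.05 (LM2 minus BM1) against 0.03. Between the knockdown libraries 53 (66.2%) were higher, against 45.3% of all genes, with a median of 0.09 against -0.06. Among the 680 genes with a mean of at least 100 FPKM, 41.5% were higher in LM2 between controls and 53.8% between knockdowns. Their medians were -0.14 and 0.04, so beside genes of like level the members were more often higher in LM2 in both treatments. At least 1.5-fold differences between controls numbered 11 higher and 1 lower in LM2, together fewer than the 34.0% of all genes that differed by this much in either direction. In 41 members (51.2%) LM2 was higher in both treatments, against 32.0% of all genes, and in 23 (28.7%) it was lower in both, against 34.5%.

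RPL35, which sits at the exit of the tunnel (ENSG00000136942.14, chromosome 9, 127620159 to 127624260, minus strand, GRCh37), differed most among the core members, at 732.8 against 643.4 FPKM in BM1 and 1604.1 against 1329.3 in LM2. The LM2 level was 2.19 times the BM1 level in controls and 2.07 times in knockdowns. The difference was 1.09 ± 0.25 (log2, standard error, limma, adjusted p 0.0490), and RPL35 was the single member called, where 4.35% of all genes were called. Its adjusted p was 0.0494 with size factors, 0.0140 with an intensity trend and 0.00113 among genes of at least 100 FPKM. Under the other 8 alternatives it was above the threshold, from 0.0538 with the length and GC trend removed to 0.403 without the term for treatment. With the length and GC trend removed 1 other member was called, whose name was not listed (1.27% of members, against 4.52% of all genes).

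RPL7A was at 575.0 against 468.7 FPKM in BM1 and 1052.4 against 1003.3 in LM2 (difference 0.98, adjusted p 0.0683), and RPS27L differed by 0.98 (adjusted p 0.0808). Among the members lower in LM2 than in BM1 were RPL31 and RPLP0. RPL31 was at 515.2 against 445.2 FPKM in BM1 and 324.9 against 260.5 in LM2 (-0.72), and RPLP0 differed by -0.71. None of these was below an adjusted p of 0.05, and in each the lines did not overlap. How many of all genes have the lines apart in this way was not counted.

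**Figure D4:**
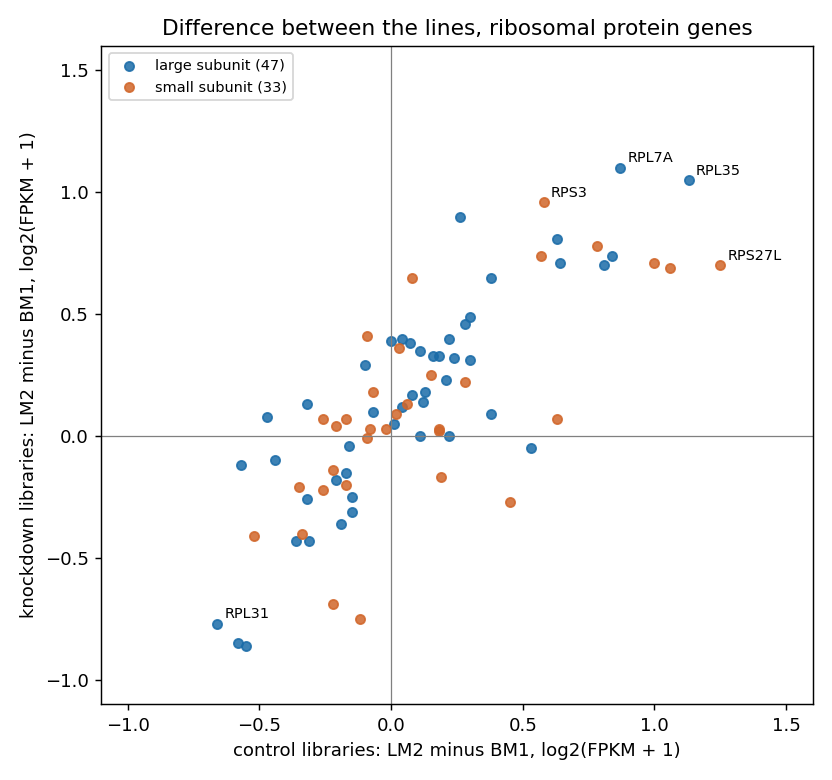
LM2 minus BM1 on the log2(FPKM + 1) scale in the control libraries (horizontal) and the knockdown libraries (vertical) for 80 members, large subunit in blue and small in orange. RPL35 and RPL7A lie in the upper right and RPL31 in the lower left, so these differences between the lines were present with and without hnRNPM depletion.

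Several features of these genes bear on how their reads were assigned. Members lie on 21 chromosomes, 12 of them on chromosome 19. A small nucleolar RNA is listed on the same strand within 28 members, and 35 members overlap a listed gene on the opposite strand. RPL36A shares its strand with the readthrough entry RPL36A-HNRNPH2 (17.2 against 4.11 FPKM in BM1, 3.95 against 2.49 in LM2), and RPL17 with RPL17-C18orf32. The table lists 194 pseudogene entries of the members, whose FPKM sum was 7.96% of the members' sum in BM1 control, 7.52% in BM1 knockdown, 7.47% in LM2 control and 7.90% in LM2 knockdown. Of the 89 pseudogenes tested, 68 were lower in BM1 and 43 in LM2, with medians of -0.32 and 0.01. How the counting divided reads between a gene and its copies was not given in the sources used here, so values of RPL41, RPL39, RPL9 and RPS3A, whose pseudogenes summed to 859.1, 510.3, 417.4 and 416.9 FPKM at most, are uncertain.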

How the data were processed

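Polyadenylated RNA of 4 cultures was sequenced as stranded paired-end libraries, per the labels' protocols. The authors deposited 1 table of FPKM values with 1 column per library. STAR 2.5.3a, Cuffdiff 2.2.1 and the build GRCh37 are named in the submitters' processing notes; the annotation release and the strand setting were not given in the sources used here. Of 20369 entries, 40 with repeated gene IDs were left out.

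Values were analysed as log2(FPKM + 1), which understates the change of low genes, for 13928 genes with a mean of at least 1 FPKM. One limma fit (3.58.1, R 4.3.3) had terms for line and treatment, with 1 residual degree of freedom, two-sided p-values adjusted by Benjamini-Hochberg over all genes tested and a threshold of 0.05. The line pairs each knockdown with its control by origin. The fit was tested on simulated data. The simulated noise had equal spread in all genes, so the p-values of these libraries were not checked by it. Within a line no test was made, and changes of at least 1.5-fold were counted. Fragment numbers were read from steps in 1623 low genes with a single GENCODE 29 transcript. Of the low values, 36.1 to 43.6% per library lay within 0.02 of a whole fragment, so reads could not be recovered and count models were not used.

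Named members were those ending in L with their partners, the 5 highest, the 5 largest average changes in each direction, the 3 that differed most between the lines' changes or levels in each direction, called members, and RPS14, RPL5, RPL11, RPS6, RPSA, RPLP0, RPLP1, RPLP2 and RPL41. RPL7L1, RPL22L1, RPL26L1, RPL36AL and FAU were described with them. Some genes that this rule selects are not reported here. Other genes named in small counts, among pseudogenes or from the gene lists, were chosen after their values were seen. The members and lists were chosen with earlier results of these data known. Alternatives were pseudocounts, filters, scalings, trend removal, the fit without the second factor, an intensity trend and single libraries left out.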

Additional observations from a re-analysis of the deposited data

Results flagged for a closer look

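Of the named members, 8 moved in opposite directions in the lines, with 1 pair of libraries per line. The difference was not tested, since each line has a single pair. The change in LM2 minus the change in BM1 was -0.63 for RPS27A, which encodes ubiquitin fused to a small subunit protein and was at 510.3 against 605.7 FPKM in BM1 and 469.7 against 360.5 in LM2. It was -0.58 for RPL7 and -0.56 for RPS24, both higher in the BM1 knockdown. The levels of RPS24 were 918.9 and 1182.5 FPKM in BM1 and 1426.2 and 1244.6 FPKM in LM2, so the lines were closer after depletion than before. It was 0.64 for RPL23 and 0.58 for RPS19, a gene mutated in Diamond-Blackfan anaemia, at 221.6 against 201.0 FPKM in BM1 and 234.0 against 316.9 in LM2. For RPL5, RPLP0 and RPL11 the values were -0.30, -0.27 and -0.10. Over all 80 members tested, 20 had opposite signs, and over all 13928 genes 4297 had.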

How the results depend on the processing

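The number of members called under knockdown was 1, and it was 0 with pseudocounts of 0.1 and 0.5, without the filter, among genes of at least 100 FPKM, with quantile normalization, with scaling without the mitochondrial genome, with the level trend removed, with the length and GC trend removed (chosen after seeing the data) and without the line term (no replicate block), with 3, 5, 11, 7, 4, 5, 2, 7 and 1 members at an unadjusted p under 0.05 in limma. Over all genes tested, 27, 613, 0, 87, 0, 16, 415, 251 and 0 were called in the same settings, against 762, and 11.1 to 24.7% were at an unadjusted p under 0.05, against 1.25 to 13.6% of members. RPL39L, with a mean of 26.5 FPKM, is not among the genes of at least 100 FPKM, so its call could not recur there. The number called between lines was 1, and it was 0 with both pseudocounts, without the filter, with quantile normalization, with scaling without the mitochondrial genome, with the level trend removed and without the treatment term, 11 among genes of at least 100 FPKM (14.1% of members, 15.7% of all such genes) and 4 with an intensity trend (of 80, against 5.14% of all genes). At an unadjusted p under 0.05 the settings with 0 had 9 to 17 members in limma (11.2 to 21.0%, against 9.57 to 23.4% of all genes). The BM1 median of -0.23 went to -0.03 with quantile normalization, -0.11 with scaling without the mitochondrial genome, 0.01 with the level trend removed and -0.14 with the length and GC trend removed, and the LM2 median of -0.19 to -0.11 with quantile normalization and -0.12 with the level trend removed. Members lower in BM1 went from 66 to 38 with the level trend removed. Members at least 1.5-fold lower went in BM1 from 8 to 2 with quantile normalization, 3 with scaling without the mitochondrial genome and 1 with the level trend removed, and to 1 in each line with the 2-fold rule. Large minus small subunit was -0.01 without the filter, -0.03 with quantile normalization, 0.00 with the level trend removed and -0.07 with the length and GC trend removed in BM1, and 0.13, 0.03 and 0.03 in LM2 with the last 3. Average changes near 0 turned sign: with quantile normalization RPL27 (0.05), RPL7A (0.02), RPS10 (0.17), RPS27A (0.04) and RPS29 (0.09), with the level trend removed RPLP0 (0.04) and RPS27A (0.08), with the length and GC trend removed RPL5 (-0.13), RPLP0 (0.09) and RPS24 (-0.05), and with scaling without the mitochondrial genome RPS27A (0.01). The cause of these moves was not tested. Leaving out a library removes the test, so no count of calls could be given.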
